A study of Mus musculus with 12 samples.

Results

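The 7 genes described here, Ly6a, Msln, Anxa1, Anxa3, Clu, Il1rn and Il33, are named for the state that intestinal epithelium takes on when it is injured and regenerates. They were chosen by gene name and make up 7 of the 54532 genes with a value in the deposited table. When the gut lining is damaged, surviving epithelial cells turn down the programme of crypt stem cells and switch on genes that are otherwise typical of the fetal gut, and cells in this state reseal and rebuild the lining. The surface protein Sca-1, encoded by Ly6a, marks this state in mouse colon, the chaperone clusterin marks a rare cell type that appears after injury in the small intestine, and annexins, mesothelin and members of the interleukin-1 family are part of the same response. The effectors of the Hippo pathway, YAP and TAZ with their TEAD partners, are known to drive much of it.

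Gene expression was measured by RNA sequencing in colonoids, which are three-dimensional cultures grown from the epithelium of mouse colon, in 4 groups of 3 libraries. Control colonoids came from Hmox1 fl/fl mice, and colonoids labelled KO came from mice in which the floxed Hmox1 gene was combined with Cre under the Vil1 (villin) promoter, which is active in villus and crypt epithelium. The donor mice were 8 to 12 weeks old, and Hmox1 encodes heme oxygenase-1, the enzyme that degrades heme. Each genotype received 200 µM hemin, the oxidised form of heme, or its vehicle for 24 h, and all colonoids grew in medium conditioned by L-WRN cells, which secrete Wnt3a, R-spondin 3 and noggin. The labels do not say whether the 3 libraries of a group came from separate animals or cultures, so p-values measure the spread between these libraries only, which may be technical. One library, labelled KO hemin replicate 3, carries the floxed Hmox1 and Vil1 Cre genotype in its label where the other libraries of its genotype are written as KO.

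Depth ranged from 11648801 to 25101868 fragments on genes per library. Values are FPKM, the fragments on a gene scaled by its length and by an effective depth of the library that already carries median-of-ratios scaling. Differences are log2 fold changes of FPKM + 1, which understate the change of low genes. A gene was called when its adjusted p-value (limma, Benjamini-Hochberg over the 12740 genes tested) was below 0.05 and its log2 fold change exceeded 1 in size; "passed the adjusted p-value alone" means that only the first condition was required. All 7 genes passed the filter of at least 1 FPKM in at least 3 libraries, Il33 only through labelled KO vehicle, the group where it was highest. The tests of Il33 against that group, and its place in the counts below, therefore depend on the filter.

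The libraries were first checked against their labels. Hmox1 read 7.62, 6.85 and 7.90 FPKM in control vehicle, 503, 483 and 382 in control hemin, 3.14, 2.11 and 2.31 in labelled KO vehicle, and 1279, 1393 and 1271 in labelled KO hemin. Hmox1 was thus lower in the colonoids labelled KO with vehicle (log2 fold change -1.27, adjusted p = 1.2e-05) and higher in them with hemin (1.53, adjusted p = 3.3e-06), which goes against the label. A value for the whole gene does not show whether its fragments came from inside the deleted part, so the genotype is given below as labelled, and every direction between genotypes rests on that label.

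The epithelial identity of the cultures was checked with 9 markers, among them Epcam, Cdh1 and Vil1, and all 9 exceeded 1 FPKM in every library, with summed levels of 5972 to 10324 FPKM. Their levels were not constant. With hemin in control 4 passed the adjusted p-value alone, as 49.9% of all genes did. These were Epcam (0.78), Cdh1 (0.53), Krt20 (0.77) and Vil1 (0.83), none of them called. With hemin in labelled KO all 9 passed it, as 60.4% of all genes did, 7 of them higher and 2 lower (median log2 fold change 0.74). Krt20 (1.41) and Vil1 (1.28) were called higher there, Krt18 (-0.48, adjusted p = 0.0019) and Cdx1 (-0.60, adjusted p = 0.048) fell by less than the threshold of size, and Cdx2 was called lower with the KO label under vehicle (-2.03) and under hemin (-1.27). The part of these changes in the results below was not tested. The summed markers of mesothelium (4 genes), fibroblasts (5), endothelium (4) and leukocytes (6) reached at most 0.142, 0.0791, 0.192 and 0.522 FPKM in any library. The mesothelial marker Upk3b was at 0 in 3 of the 4 groups, the fibroblast markers Dcn and Col1a2 were at 0 in all libraries, and Ptprc, which encodes the pan-leukocyte protein CD45, did not exceed a group mean of 0.0110 FPKM. The markers of squamous epithelium were an exception. Their 8 genes summed to 52.5 to 67.4 FPKM in control vehicle, 0.263 to 1.26 in control hemin, 13.7 to 16.8 in labelled KO vehicle and 0.877 to 1.25 in labelled KO hemin. Most of this was keratin 4 (Krt4, 52.4 ± 5.73 FPKM in control vehicle, SD, n = 3), whereas Trp63 was at 0 in 3 of the 4 groups. The genotypes also differed in position along the colon as homeobox genes record it: Hoxb13 and Hoxd13, genes of the most posterior gut, were at 0 in all control libraries and at 104 to 134 and 31.2 to 59.7 FPKM in those labelled KO. The summed distal markers (4 of 5 listed genes had a row) ran from 33.6 to 47.1 FPKM in control and from 218 to 229.6 in labelled KO colonoids, so region of origin and genotype cannot be told apart.

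A few libraries stood apart. The RNA gene Gm23935 took 16.8% of the FPKM sum in control vehicle replicate 1, 29% in control hemin replicate 1 and 21% in labelled KO hemin replicate 2, against 1.18% to 2.81% in the others. Control hemin replicate 3 differed most from a replicate of its own group. Counts of called genes printed below were also made without the 3 libraries high in Gm23935 and without control hemin replicate 3, and are given again where they changed.

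The 7 genes lie on 6 chromosomes (GRCm38, coordinates as deposited). Ly6a (ENSMUSG00000075602) lies on chromosome 15 at 74994877 to 74998031, minus strand, and Msln (ENSMUSG00000063011) on chromosome 17 at 25748614 to 25754327, minus strand. The annexin genes are Anxa1 (ENSMUSG00000024659) on chromosome 19 at 20373428 to 20390944, minus strand, and Anxa3 (ENSMUSG00000029484) on chromosome 5 at 96793339 to 96845966, plus strand. Clu (ENSMUSG00000022037) lies on chromosome 14 at 65968483 to 65981547, Il1rn (ENSMUSG00000026981) on chromosome 2 at 24336853 to 24351494, and Il33 (ENSMUSG00000024810) on chromosome 19 at 29925114 to 29960718, all on the plus strand. Values count fragments over the whole gene, without separating exons or UTRs.

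Because TEAD factors, AP-1, NRF2 and heat shock factors all act in injured or heme-loaded epithelium, the promoters of the 7 genes were searched for their motifs. RefSeq promoter windows (GRCm38.p6, 250 bases before to 50 after a start) were at hand for 3 of the 7 genes, with 1 window for Anxa1, 3 for Il1rn and 2 for Il33. Shown are the 250 bases before the start in 4 windows that held a match, 5′ to 3′ on the gene's strand, with the match to the TEAD motif GGAATG or to the AP-1 motif TGANTCA in capitals.
Anxa1, chr19:20390672-20390921, minus strand: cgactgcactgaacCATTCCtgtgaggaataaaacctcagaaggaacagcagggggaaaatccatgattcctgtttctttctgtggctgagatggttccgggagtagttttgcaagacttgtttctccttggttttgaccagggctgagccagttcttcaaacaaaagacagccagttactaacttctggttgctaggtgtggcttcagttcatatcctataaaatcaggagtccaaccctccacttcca
Il1rn, first start, chr2:24336610-24336859, plus strand: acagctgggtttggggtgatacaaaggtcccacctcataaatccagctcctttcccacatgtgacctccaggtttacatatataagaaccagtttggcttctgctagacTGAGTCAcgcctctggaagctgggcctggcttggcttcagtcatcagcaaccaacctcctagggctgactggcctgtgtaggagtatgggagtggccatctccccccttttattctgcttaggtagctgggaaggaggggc
Il1rn, later start, chr2:24345121-24345370, plus strand: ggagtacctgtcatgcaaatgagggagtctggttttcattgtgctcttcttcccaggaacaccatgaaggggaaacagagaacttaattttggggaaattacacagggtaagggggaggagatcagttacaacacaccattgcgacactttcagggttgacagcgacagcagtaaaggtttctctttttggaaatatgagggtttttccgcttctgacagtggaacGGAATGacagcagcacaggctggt
Il33, first start, chr19:29924863-29925112, plus strand: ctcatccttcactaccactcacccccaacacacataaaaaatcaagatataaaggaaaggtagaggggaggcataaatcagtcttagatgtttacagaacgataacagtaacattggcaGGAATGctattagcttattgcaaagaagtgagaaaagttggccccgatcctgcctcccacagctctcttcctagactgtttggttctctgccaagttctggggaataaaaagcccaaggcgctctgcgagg

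The TEAD letters, searched on both strands, occurred in 4 of the 6 windows, beginning 236 bases before the start in Anxa1, 24 in the later Il1rn window, and 131 and 107 in the windows of Il33. They occur in 14.7% of all 32851 promoter windows of this length. The AP-1 letters occurred in 1 window, 141 bases before the first start of Il1rn, and occur in 7.81% of all windows. Neither the antioxidant response element TGACNNNGC, which NRF2 binds and which can overlap the AP-1 motif, nor the heat shock core GAANNTTC occurred in these 6 windows (12.4% and 7.86% of all windows). A match describes letters in a window and not a bound site.

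Of the 7 genes, 6 were well expressed in these colonoids and 1 was close to the detection limit. By mean FPKM over the 12 libraries, Ly6a stood 87th from the top of the 12740 genes tested at 382, Anxa1 223rd at 189.8, Il1rn 589th at 84.7, Anxa3 767th at 69.7, Msln 807th at 67.5 and Clu 1460th at 40.3. Il33 stood 12092nd at 0.875 FPKM, so its values rest on few fragments. In bulk samples, fewer cells expressing a gene and less RNA per cell cannot be told apart.

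**Figure D1:**
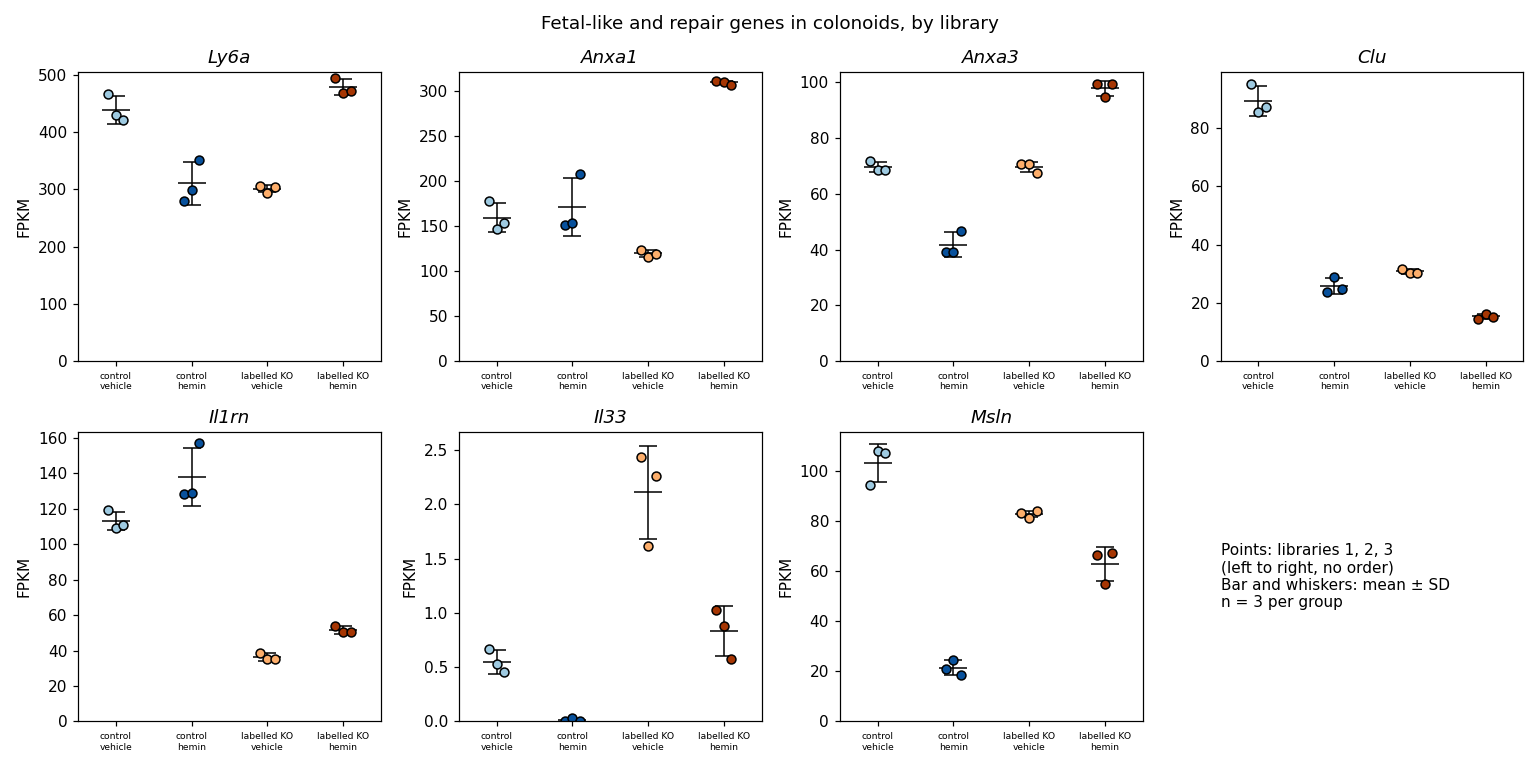
FPKM (y axis, from 0) of each of the 7 genes in the 12 libraries; points are single libraries and bars are the mean ± SD of 3 libraries per group. The 3 labelled KO hemin libraries are the highest for Anxa1 (307 to 311) and Anxa3 (94.7 to 99.5), whereas Clu is highest in control vehicle (85.6 to 95.2) and Il33 in labelled KO vehicle (1.62 to 2.44).

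Ly6a, a small surface protein held by a GPI anchor, moved in opposite directions with hemin in the 2 labelled genotypes. Its level was 467, 429 and 421 FPKM in control vehicle and 279.7, 299.7 and 352 in control hemin. In colonoids labelled KO it was 305, 294 and 304 FPKM with vehicle and 494, 468 and 472 with hemin. The groups did not overlap within either genotype: all hemin libraries were lower than all vehicle libraries in control and higher in labelled KO. The log2 fold change with hemin was -0.50 in control (SE 0.08, adjusted p = 4.7e-04) and 0.66 in labelled KO (SE 0.08, adjusted p = 4.2e-05), neither large enough to be called, and the difference between both responses was called at 1.17 (SE 0.12, 95% interval 0.91 to 1.43, adjusted p = 5.0e-05). Labelled KO colonoids started below control with vehicle (-0.54, adjusted p = 4.2e-04) and ended above it with hemin (0.63, adjusted p = 1.5e-04). In order of level, labelled KO hemin (478 ± 13.9) and control vehicle (439 ± 24.4) stood above control hemin (311 ± 37.5) and labelled KO vehicle (301 ± 5.89), and the lower pair overlapped, while the lowest labelled KO hemin library (468) lay just above the highest control vehicle library (467). Of the 1297 distinct 50-base windows of Ly6a transcripts, 246 (19%) also occur in another gene, most of them in Ly6c1, so part of the Ly6a signal depends on how shared fragments were counted.

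Msln, which encodes the precursor of mesothelin, another GPI-anchored surface glycoprotein, fell with hemin in control colonoids. It read 94.1, 108 and 107 FPKM in control vehicle against 20.8, 24.7 and 18.7 in control hemin. Colonoids labelled KO held 83.0, 81.2 and 83.8 FPKM with vehicle and 66.5, 54.8 and 67.1 with hemin. Hemin libraries were lower than vehicle libraries in both genotypes without overlap, and the control hemin libraries were the lowest of all. The log2 fold change was -2.22 in control (SE 0.11, adjusted p = 7.2e-08), which was called, and -0.40 in labelled KO (SE 0.11, adjusted p = 0.0077), which was not. The difference between the responses was 1.82 (SE 0.15, 95% interval 1.49 to 2.16, adjusted p = 1.4e-05), the largest of the 7 genes in this fit. With hemin, Msln was called higher in labelled KO than in control colonoids (1.51, SE 0.11, adjusted p = 1.2e-06), whereas with vehicle the value was -0.31 (adjusted p = 0.044). That vehicle difference missed the threshold when any of 8 single libraries was left out, with values of -0.32 to -0.27 and adjusted p-values of 0.054 to 0.13: control vehicle replicates 2 and 3, control hemin replicate 1, all 3 of labelled KO vehicle, and labelled KO hemin replicates 1 and 3. Mesothelium, from which the protein takes its name, left no more than 0.142 FPKM of summed markers in any library.

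Anxa1 encodes annexin A1, a calcium-dependent phospholipid-binding protein that promotes epithelial repair through formyl peptide receptors, and it rose with hemin in colonoids labelled KO. Control libraries read 178, 147 and 153 FPKM with vehicle and 151, 153 and 208 with hemin. Labelled KO libraries read 124, 116 and 119 FPKM with vehicle and 311, 310.4 and 307 with hemin. The control groups overlapped, and every labelled KO hemin library was higher than every other library. Hemin raised Anxa1 by 1.37 in labelled KO (SE 0.12, adjusted p = 2.0e-06), a called change, while the value in control was 0.09 (95% interval -0.17 to 0.34, adjusted p = 0.55). The responses differed by 1.28 (SE 0.16, 95% interval 0.92 to 1.64, adjusted p = 2.4e-04). With vehicle, labelled KO colonoids had less Anxa1 (-0.41, adjusted p = 0.018), and with hemin more (0.87, adjusted p = 1.5e-04). The last of these values was called without control hemin replicate 3, the library at 208 FPKM (1.02, adjusted p = 2.0e-06), and without it the control response to hemin was -0.06 (adjusted p = 0.49). The vehicle difference missed the threshold without control vehicle replicate 1 (-0.33, adjusted p = 0.072), labelled KO vehicle replicate 2 (-0.38, adjusted p = 0.062) or labelled KO vehicle replicate 3 (-0.41, adjusted p = 0.053).

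Anxa3, another annexin gene, had overlapping levels in both genotypes with vehicle. It read 71.7, 68.6 and 68.5 FPKM in control vehicle and 70.6, 70.8 and 67.4 in labelled KO vehicle. With hemin it read 39.0, 39.2 and 46.8 FPKM in control and 99.3, 94.7 and 99.5 in labelled KO. The vehicle groups overlapped, and the hemin groups lay on opposite sides of them. With vehicle the difference between genotypes was 0.00 (95% interval -0.16 to 0.16, adjusted p = 0.99). Hemin lowered Anxa3 in control (-0.73, SE 0.07, adjusted p = 1.1e-05) and raised it in labelled KO (0.48, SE 0.07, adjusted p = 1.4e-04). The genotype difference with hemin (1.22, SE 0.07, adjusted p = 2.6e-07) and the difference between the responses (1.22, SE 0.10, 95% interval 0.99 to 1.44, adjusted p = 1.4e-05) were both called.

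Clu encodes clusterin, a secreted chaperone, and was lower wherever hemin or the KO label applied. Its level was 95.2, 85.6 and 87.2 FPKM in control vehicle and 23.6, 28.8 and 24.9 in control hemin. Labelled KO libraries held 31.7, 30.4 and 30.4 FPKM with vehicle and 14.5, 16.2 and 15.3 with hemin. None of the 4 groups overlapped, in the order control vehicle, labelled KO vehicle, control hemin, labelled KO hemin. Clu fell with hemin in control (-1.76, SE 0.08, adjusted p = 3.7e-08) and was lower with the KO label under vehicle (-1.50, SE 0.08, adjusted p = 7.7e-08), both called. The fall with hemin in labelled KO (-0.96, SE 0.08, adjusted p = 1.4e-06) stayed just under the threshold of size, and it was called with a pseudocount of 0.1 and on recovered fragments. In TPM it was -1.33, where the median of all genes was -0.31. With hemin, labelled KO was lower than control by a smaller margin than with vehicle (-0.71, adjusted p = 3.6e-05), and the difference between the responses was 0.80 (95% interval 0.56 to 1.04, adjusted p = 4.0e-04), not called for its size. Clu thus went the other way from Ly6a, Anxa1 and Anxa3 in labelled KO colonoids given hemin.

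Squamous markers also moved in some of these comparisons. Krt4 fell with hemin in control (log2 fold change -5.39, adjusted p = 5.3e-11) and in labelled KO (-3.66, adjusted p = 2.5e-10), and was lower with the KO label under vehicle (-2.02, adjusted p = 3.2e-08). Krt14, the other squamous marker that passed the filter, fell with hemin in control (-2.30, adjusted p = 1.6e-05) and was lower with the KO label under vehicle (-1.89, adjusted p = 9.4e-05), and its value with hemin in labelled KO was -0.72 (adjusted p = 0.021, not called). On the scale of FPKM + 1, the difference between the responses was called for both. It was 1.73 for Krt4 and 1.58 for Krt14 (adjusted p = 7.3e-06 and 0.006). Krt4 read 52.4 and 0.268 FPKM on average with vehicle and hemin in control, and 12.1 and 0.0374 in labelled KO. Krt14 read 6.47 and 0.539 in control, and 0.971 and 0.194 in labelled KO. Both hemin groups of each gene lay below the pseudocount of 1, so no direction is given for these differences. Between genotypes under hemin neither was called (-0.29 for Krt4 and -0.32 for Krt14), where Msln was called higher. Of the 8 listed squamous markers only these 2 passed the filter. Krt5, Krt13, Dsg3, Ivl and Krtdap reached group means of at most 0.106, 1.08, 0.564, 0.240 and 0.172 FPKM. Whether squamous cells were present, and their part in the values of Clu, Msln and the genes listed below, was not tested.

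**Figure D2:**
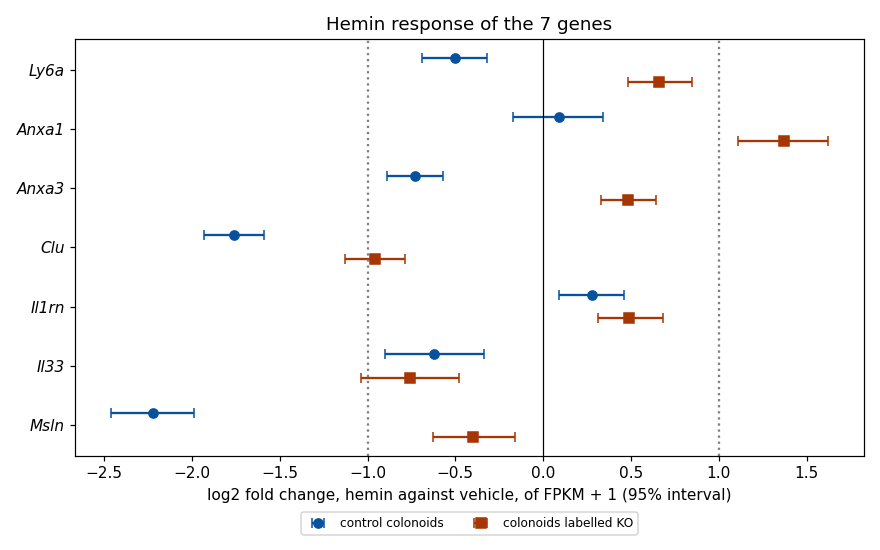
Log2 fold change of FPKM + 1 with hemin (x axis) of the 7 genes in control colonoids (circles) and colonoids labelled KO (squares), with 95% intervals from limma; dotted lines mark a log2 fold change of 1 in size. The squares lie to the right of the circles for Ly6a, Anxa1, Anxa3, Clu and Msln, and the intervals of both genotypes overlap for Il1rn and Il33.

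Il1rn encodes the interleukin-1 receptor antagonist, which occupies the receptor for interleukin-1 without signalling, and it set the genotypes apart under both treatments. Control libraries read 119, 109 and 111 FPKM with vehicle and 128, 129 and 157 with hemin. Labelled KO libraries read 38.7, 35.0 and 35.3 FPKM with vehicle and 53.9, 50.3 and 50.3 with hemin. All control libraries were above all labelled KO libraries, and hemin libraries were above vehicle libraries within each genotype. The genotype difference was -1.61 with vehicle (SE 0.08, adjusted p = 7.7e-08) and -1.40 with hemin (SE 0.08, adjusted p = 2.8e-07), both called. Hemin moved Il1rn by 0.28 in control (adjusted p = 0.017) and by 0.49 in labelled KO (adjusted p = 3.9e-04), below the threshold of size. The difference between the responses was 0.22 (95% interval -0.04 to 0.48, adjusted p = 0.22), so a difference of up to 0.48 remained within the interval. Without control hemin replicate 3, the library at 157 FPKM, it was 0.31 (adjusted p = 0.012). The control response was 0.18 without that same library, and it missed the threshold without control vehicle replicate 2 (0.25, adjusted p = 0.06) or control vehicle replicate 3 (0.26, adjusted p = 0.053).

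Il33 encodes the alarmin interleukin-33, which is released from damaged epithelium, and it was scarce in every group. It read 0.672, 0.527 and 0.454 FPKM in control vehicle (18 to 32 fragments per library) and 0, 0.0293 and 0 in control hemin, where the 3 libraries together held 1 fragment. In labelled KO colonoids it read 2.44, 1.62 and 2.26 FPKM with vehicle (81 to 115 fragments) and 1.03, 0.884 and 0.580 with hemin (24 to 60 fragments). The labelled KO vehicle libraries were the highest, control hemin the lowest, and control vehicle and labelled KO hemin overlapped. At equal effective depth, control vehicle held 56.1 times as many Il33 fragments as control hemin (76 against 1, 95% interval 9.76 to 2243), and labelled KO hemin 84.8 times as many (127 against 1, 95% interval 15.0 to 3376), both intervals covering counting error only. On the log2 scale of FPKM + 1, the changes were -0.62 with hemin in control (adjusted p = 0.0021), -0.76 with hemin in labelled KO (adjusted p = 3.7e-04), 1.00 with the KO label under vehicle (adjusted p = 1.1e-04, unrounded just below the threshold of size) and 0.85 under hemin (adjusted p = 3.7e-04). Outside labelled KO vehicle, a single library reached 1 FPKM (1.03), so Il33 passed the filter only through that group. The comparisons with labelled KO vehicle therefore describe the values and are no independent test. The vehicle difference was called without control vehicle replicate 1 (1.05) and without labelled KO vehicle replicate 2 (1.11). The difference between the hemin responses depended on the pseudocount: it was -0.14 (adjusted p = 0.63) with a pseudocount of 1, 1.31 (adjusted p = 0.036) with 0.1 and 3.38 (adjusted p = 0.0097) on recovered fragments, so no direction is given for it.

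**Figure D3:**
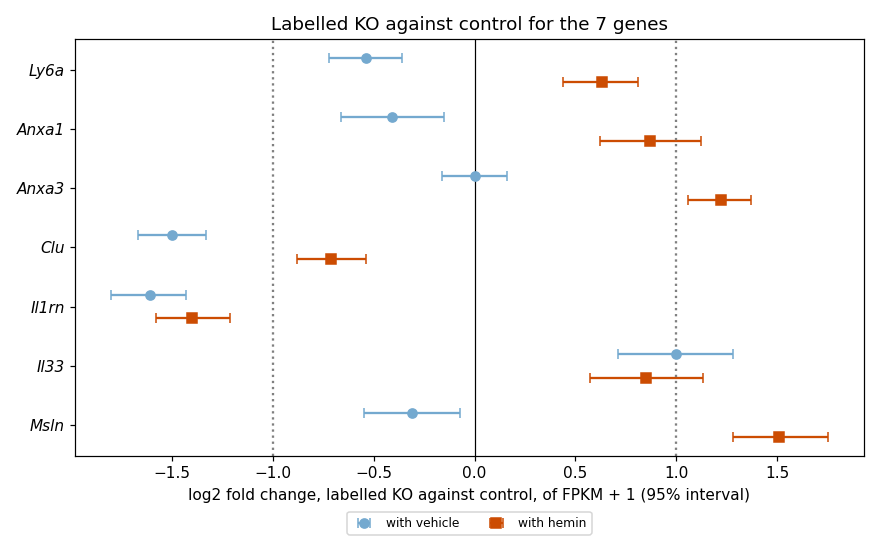
Log2 fold change of FPKM + 1 between colonoids labelled KO and control colonoids (x axis) for the 7 genes with vehicle (circles) and with hemin (squares), with 95% intervals from limma; dotted lines mark a log2 fold change of 1 in size. Ly6a, Anxa1 and Msln lie left of 0 with vehicle and right of 0 with hemin, Anxa3 moves from 0.00 to 1.22, and Clu and Il1rn lie left of 0 in both.

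Over the 7 genes, hemin in control colonoids brought 2 called decreases (Clu and Msln) and 0 called increases. At an adjusted p-value alone, 6 genes passed, all but Anxa1, and the vehicle and hemin libraries of the same 6 did not overlap. Of all genes tested, 5.93% were called lower and 2.17% higher in this comparison, 49.9% passed the adjusted p-value alone, and 52.4% did not overlap. The median log2 fold change was -0.62 over the 7 genes and -0.01 over all genes.

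In colonoids labelled KO, hemin brought 1 called increase (Anxa1) and 0 called decreases. At an adjusted p-value alone all 7 passed and none overlapped, with 4 higher (Ly6a, Anxa1, Anxa3, Il1rn) and 3 lower (Clu, Il33, Msln). The background here was wide, since 4.87% of all genes were called higher, 8.07% lower, 60.4% passed the adjusted p-value alone and 74.4% did not overlap. The median was 0.48 over the 7 genes and -0.00 over all genes.

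With vehicle, the KO label went with 2 called decreases (Clu and Il1rn) and 0 called increases, and 6 genes passed the adjusted p-value alone without overlap, all but Anxa3. Of all genes, 3.53% were called higher, 3.27% lower, 34.2% passed the adjusted p-value alone and 57.5% did not overlap. Without the 3 libraries high in Gm23935, Il33, which passed the filter through labelled KO vehicle, was called higher as well (1.05). With hemin, Anxa3 and Msln were called higher and Il1rn lower in labelled KO, and all 7 genes passed the adjusted p-value alone without overlap, against 3.10% called higher, 2.91% called lower, 34.4% past the adjusted p-value and 40.9% without overlap among all genes. The medians of the 7 genes were -0.41 with vehicle and 0.85 with hemin, and those of all genes 0.02 and 0.04.

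The test of the difference between the hemin responses called 4 of the 7 genes, Ly6a, Anxa1, Anxa3 and Msln, all with a higher value in labelled KO, and 5 passed the adjusted p-value alone. Among all genes 2.57% were called in this direction, 2.56% in the other, and 23.8% passed the adjusted p-value alone. The median was 1.17 over the 7 genes and 0.02 over all genes. The same number of members was called in each direction without control hemin replicate 3, except that Anxa1 was added between genotypes under hemin. These 5 comparisons share groups and are not independent of each other.

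The fetal-like and repair state was followed further in a list of 18 other genes. Of the 16 that passed the filter (Spp1 and Basp1 did not), hemin in control lowered 4 by the call and raised 0: Anxa8 (-1.70), Sprr1a (-2.22), Krt7 (-1.17) and the gap junction gene Gja1 (-1.04). In labelled KO, hemin raised 3, namely Anxa2 (1.27), the urokinase receptor gene Plaur (1.65) and the TWEAK receptor gene Tnfrsf12a (1.50), and lowered 2, Gja1 (-1.56) and Krt7 (-1.08). With vehicle, 4 were lower in labelled KO, among them Plaur (-1.15), Tmsb10 (-1.10) and Sprr1a (-1.07), and with hemin 1 was higher, Anxa8 (2.16). The responses differed for 7, all in the direction of labelled KO, among them Anxa8 (2.01), Tnfrsf12a (1.64), Plaur (1.56), Sprr1a (1.39), Anxa2 (1.21) and Cldn4 (1.18). Of all genes tested, 5.93% were called lower and 2.17% higher with hemin in control, 4.87% higher and 8.07% lower with hemin in labelled KO, 3.27% lower under vehicle, 3.10% higher under hemin and 2.57% higher in the difference between responses. The medians over the 16 genes were -0.22, 0.52, -0.47, 0.33 and 0.80 in the order in which the comparisons are given above. Tmsb10 and Tnfrsf12a varied within control hemin (150.0 to 508 and 28.0 to 76.8 FPKM), replicate 3 being the lowest for both, and without that library 7 responses were again called different. Without the 3 libraries high in Gm23935, hemin lowered 3 in control, raised 4 and lowered 1 in labelled KO, and under vehicle 1 was higher and 3 were lower in labelled KO. Without labelled KO hemin replicate 3, 1 gene was also called lower in labelled KO with hemin. The lists were drawn up with earlier results known and add no independent evidence of direction.

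**Figure D4:**
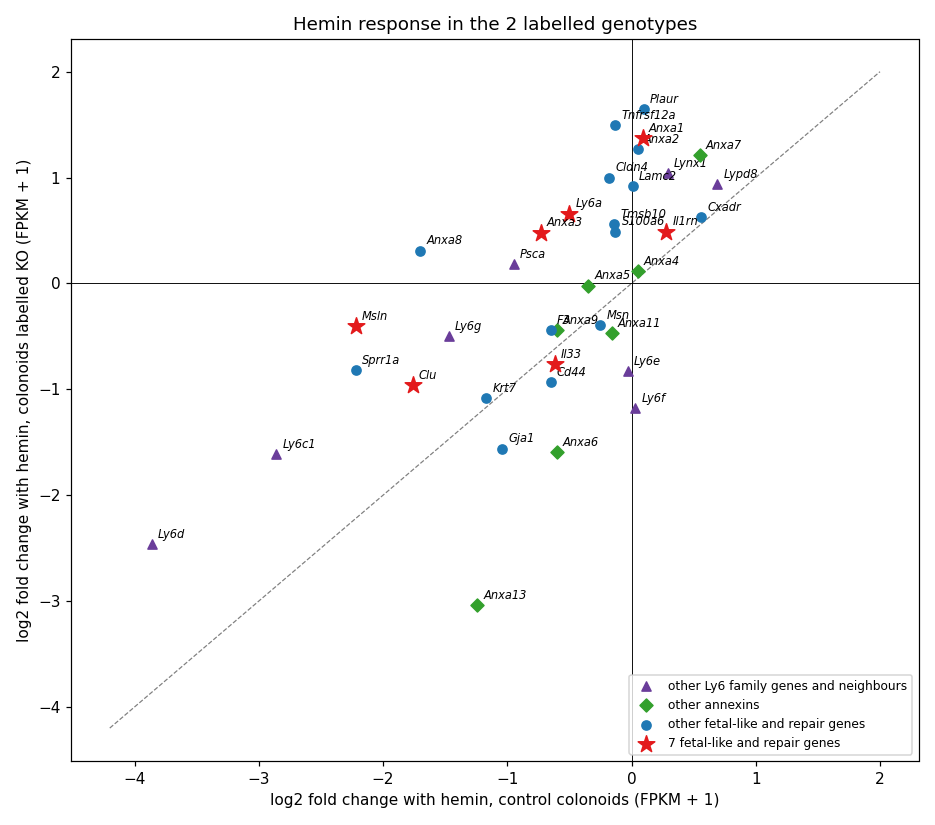
Log2 fold change of FPKM + 1 with hemin in control colonoids (x axis) and in colonoids labelled KO (y axis) for the 7 genes (stars), other fetal-like and repair genes (circles), other annexins (diamonds) and other Ly6 family genes (triangles); the dashed line marks equal responses. Ly6a, Anxa1, Anxa3 and Msln lie above the line with Anxa8, Anxa2 and Plaur, and Anxa13 lies below it.

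The annexin family was not uniform. Of 12 annexin genes 11 passed the filter, and the hemin responses differed upward in labelled KO for 4, Anxa1, Anxa2, Anxa3 and Anxa8, and downward for 1, Anxa13 (-1.80), against 2.57% and 2.56% of all genes. Without the 3 libraries high in Gm23935, 4 differed upward and 2 downward. Anxa13, an annexin of intestinal epithelium, read 1.71 ± 0.0804 FPKM in control vehicle, 0.148 ± 0.0345 in control hemin, 7.73 ± 0.377 in labelled KO vehicle and 0.0621 ± 0.0371 in labelled KO hemin (SD, n = 3). Anxa2, the most abundant, followed Anxa1 at 493 ± 13.0, 514 ± 46.2, 267 ± 3.39 and 644 ± 29.5 FPKM in the same order. The S100 partners of annexins, S100a10 and S100a11, were called higher with hemin in labelled KO (1.02 and 1.09), as 4.87% of all genes were. In control both also rose, below the threshold of size (0.31 and 0.57, adjusted p = 0.0012 and 0.0088). Neither was called in the difference between responses, and neither passed the adjusted p-value between genotypes under hemin. The formyl peptide receptor genes Fpr1 and Fpr2, whose products bind annexin A1, did not pass the filter, and Fpr1 was at 0 in all libraries.

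Among Ly6a and its family and neighbours, 9 of 14 genes passed the filter. The hemin responses differed upward in labelled KO for 4, Ly6a, Ly6c1 (1.24), Ly6d (1.39) and Psca (1.13), and downward for 1, Ly6f (-1.21), against 2.57% and 2.56% of all genes. The routes to this difference were unlike: Ly6c1 and Ly6d fell with hemin in both genotypes (-2.86 and -3.86 in control, -1.61 and -2.46 in labelled KO), whereas Ly6a fell in control and rose in labelled KO. Ly6c1, which holds most of the windows that Ly6a shares with other genes, read 51.7 ± 6.31, 6.29 ± 0.967, 31.8 ± 0.590 and 9.74 ± 1.07 FPKM in control vehicle, control hemin, labelled KO vehicle and labelled KO hemin, so its level stayed below that of Ly6a throughout. Without control hemin replicate 3, 5 genes of this family were called upward in the difference between responses, and without the 3 libraries high in Gm23935, 3 upward and 2 downward.

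Around the interleukin-1 genes, few partners were expressed. Of 7 interleukin-1 family ligands, 3 passed the filter, Il18, Il33 and Il1f9 (interleukin-36 gamma), and none was called in any of the 5 comparisons with all libraries. Il33 was called under vehicle with libraries left out, as given above. Il1b was at 0 in all libraries. Of 5 antagonists and decoys, Il1rn and Sigirr passed, and of 7 receptor and adaptor genes, Il1r1, Il1rap and Myd88. Il1r1, the receptor that Il1rn blocks, read 3.81 FPKM on average in control vehicle and 0.617 in labelled KO hemin, and its changes passed the adjusted p-value alone with hemin in control (-0.89) and in labelled KO (-0.79). Il1rl1, which encodes the receptor for interleukin-33, reached a group mean of at most 0.0330 FPKM and was at 0 in all labelled KO libraries.

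For clusterin, the receptor genes Lrp8 and Vldlr passed the filter and rose at the adjusted p-value alone with hemin in labelled KO (0.65 and 0.73, adjusted p = 3.2e-06 and 2.1e-05), below the threshold of size. Lrp2, another clusterin receptor gene, and Muc16, which encodes the mucin that binds mesothelin, did not pass the filter.

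The components of the Hippo pathway were followed in a list of 12 genes. Of these 11 passed the filter, and Tead4 (hemin in control, -1.18) and Tead2 were called in at least 1 comparison. The 1 gene called lower with hemin in each genotype stands against 5.93% of all genes in control and 8.07% in labelled KO. Tead2 read 0.426, 0.120, 3.36 and 0.227 FPKM on average in control vehicle, control hemin, labelled KO vehicle and labelled KO hemin. It passed the filter only through labelled KO vehicle. Its calls under vehicle (1.62, against 3.53% of all genes called higher) and with hemin in labelled KO (-1.82) compare with that group, so they describe the values and are no independent test. Of 6 YAP and TAZ target genes 4 passed the filter, and hemin in control lowered 2 of them by the call, Ctgf (-2.15) and Ajuba (-1.13). Without control hemin replicate 3, 3 were called lower. Ctgf, which encodes a matricellular growth factor, was also higher in labelled KO with hemin (1.67), where 3.10% of all genes were called higher. Its responses differed by 2.25 (adjusted p = 7.9e-08), the only call among the 4 in that test, where 2.57% of all genes were called higher. Without the 3 libraries high in Gm23935, that test made 2 calls. Ctgf read 25.8, 26.1 and 27.8 FPKM in control vehicle, 4.81, 5.23 and 5.59 in control hemin, 17.4, 17.5 and 17.5 in labelled KO vehicle and 19.5, 19.4 and 17.6 in labelled KO hemin, so that the control hemin libraries alone were low.

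Crypt stem cell and Wnt target genes, the programme that the fetal-like state replaces, were followed in a list of 10, of which 8 passed the filter. In control 2 were called lower, Smoc2 (-1.65) and Sox9 (-1.23), and in labelled KO 5, Smoc2 (-3.04), Lrig1 (-1.87), Lgr5 (-1.40), Sox9 (-1.32) and Ascl2 (-1.19), with 0 called higher in either, against 5.93% and 8.07% of all genes called lower. Rnf43, which encodes a negative regulator of Wnt receptors, went the other way in labelled KO (0.63, adjusted p = 2.9e-04) and was at 0.26 in control (adjusted p = 0.057), neither called. Under vehicle, Ascl2 (1.69) and Smoc2 (1.18) were called higher in labelled KO, against 3.53% of all genes. With hemin, 1 of the 8 was called higher there, against 3.10% of all genes, and 0 without control hemin replicate 3. The responses differed downward for Smoc2 (-1.39) and Lrig1 (-1.34), against 2.56% of all genes.

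The patterns of the 7 genes over the 12 libraries were compared by the root mean square difference of their log2(FPKM + 1) values, each gene centred on its own mean. Among the 21 pairs, Ly6a was nearest to Anxa3 (0.30) and Anxa1 (0.34), and Il1rn and Msln were farthest apart (1.42). Over all tested genes, the nearest reported for each were Adss (0.075) and Ppp1r2 (0.112) for Ly6a, Ap1s2 (0.136) and Nostrin (0.141) for Anxa1, Slc5a3 (0.098) and Car2 (0.109) for Anxa3, and Gm11735 (0.189) and Mmp28 (0.215) for Clu. For Il1rn they were Stard3nl (0.154) and Papss2 (0.160), for Il33 Wdr76 (0.159) and Foxp1 (0.166), and for Msln Ctgf (0.225). These values describe likeness over libraries that share groups and carry no test. Car2, which encodes carbonic anhydrase 2, read 501, 325, 594 and 721 FPKM on average in control vehicle, control hemin, labelled KO vehicle and labelled KO hemin, lowest in control hemin and highest in labelled KO hemin as for Anxa3.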

How the data were processed

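RNA from 12 colonoid libraries was sequenced after poly-A selection. The deposited table gives FPKM per gene and library. Per the labels, the authors' processing notes name fastp, HISAT2 2.0.5, featureCounts 1.5.0-p3 and mm10, and strandedness is not given in the sources used here. FPKM times gene length came out as whole multiples of 1 fragment for 100% of values (tolerance 0.01 fragments), so fragments could be recovered. Size factors recomputed by median of ratios came to 1.009 for each of the 12 libraries, so the deposited FPKM already carry that scaling. Gene length in bases was deposited with them.

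Genes with at least 1 FPKM in at least 3 libraries (12740) were fitted as log2(FPKM + 1) with limma 3.58.1 (R 4.3.3), with 4 group means, a trended prior and 8 residual degrees of freedom. The 5 comparisons were hemin against vehicle in each genotype, labelled KO against control under each treatment, and the difference between the hemin responses. p-values were adjusted by Benjamini-Hochberg over all genes tested. Intervals are 95%, and the Il33 ratios are exact for counts. The precision of low genes is limited by depth (11648801 to 25101868 fragments). The procedure was tested on simulated data.

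Members and gene lists were chosen with earlier results of these data known. Named were the members, Hmox1, listed genes, and the 2 tested genes most like each member, of which some genes are not reported here. Columns were mapped to groups by their labels, and within groups replicate pairs differed by more than sampling noise (chi-square per degree of freedom 1.93 to 43.1). Alternatives changed the pseudocount, filter, scaling, block, prior, groups fitted, call rule, test and libraries. Shared sequence was counted as exact 50-base windows of GENCODE transcripts. Python 3.11.15 was used for tables and figures.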

Additional observations from a re-analysis of the deposited data

Results flagged for a closer look

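The hemin response differed between the labelled genotypes for 5 of the 7 genes by the test of the difference itself (adjusted p-value alone, passed by 23.8% of all genes). The difference, as the response in labelled KO minus the response in control on the log2 scale of FPKM + 1, was 1.17 for Ly6a, 1.28 for Anxa1, 1.22 for Anxa3, 0.80 for Clu and 1.82 for Msln (limma, adjusted p = 5.0e-05, 2.4e-04, 1.4e-05, 4.0e-04 and 1.4e-05). Ly6a and Anxa3 fell in control and rose in labelled KO. Anxa1 rose in labelled KO and changed by 0.09 in control (adjusted p = 0.55), and Clu and Msln fell less in labelled KO. Posterior homeobox genes differed between the genotypes under both treatments, and their part in these differences was not tested. Groups of 3 libraries were not tested for single outlying values.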

How the results depend on the processing

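Over 828 values, 1 for each gene, comparison and alternative, 774 kept their direction and their call, 43 were newly called, 0 lost a call and 11 changed sign. A call meant adjusted p-value and size together, except under the alternative of the adjusted p-value alone, which drops the size condition. That alternative gave part of the 43 new calls: with hemin in labelled KO, 7 members passed it against 1 called. Values that crossed the adjusted p-value threshold alone with 1 library left out were Msln and Anxa1 under vehicle (8 and 3 libraries), Il1rn with hemin in control (2) and the Il1rn difference between responses (1). By the adjusted p-value alone, 6 members passed with hemin in control, 7 with hemin in labelled KO, 6 between genotypes under vehicle and 7 under hemin, against 49.9%, 60.4%, 34.2% and 34.4% of all genes. With hemin in labelled KO, 3 members were called with a pseudocount of 0.1, in TPM, in TPM without Gm23935 and by limma-voom on recovered fragments, as Clu and Il33 joined Anxa1, while the share of all genes called rose from 12.9% to between 18.2% and 20.4%. TPM moved the median of all genes by up to -0.31 (hemin in labelled KO), with -0.19 for hemin in control. Anxa1 with hemin in control was -0.10 in TPM and -0.02 in TPM without Gm23935, and from -0.06 to 0.17 with single libraries left out. Anxa3 under vehicle ran from -0.01 to 0.02 between genotypes with single libraries left out. The Il33 difference between responses was 1.31 with a pseudocount of 0.1, 0.03 in TPM, 0.17 in TPM without Gm23935 and 3.38 by limma-voom, and the cause was not tested. Replicate numbers did not pair the libraries (mean correlation of deviations -0.04 over 18 same-numbered pairs and 0.02 over 36 others), and the fit with the replicate block called 2, 1, 2, 3 and 4 members as before. A mean FPKM of at least 5 left out Il33, and a fit of only the groups compared does not apply to the difference between responses. Leaving out the 3 libraries high in Gm23935, an alternative chosen after seeing the data, added Il33 under vehicle (1.05).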
